A study of Mus musculus with 8 samples.

Results

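The genes described here were 7 matrix metalloproteinases (MMPs), Mmp2, Mmp8, Mmp9, Mmp12, Mmp13, Mmp14 and Mmp19, and 3 of the tissue inhibitors of metalloproteinases (TIMPs), Timp1, Timp2 and Timp3. They were chosen by symbol, each matched 1 row, and the 10 genes stand among 25124 genes of the table. RNA-seq values came from 8 cultures of mouse osteoclast precursor (OCP) cells, bone marrow macrophages grown in M-CSF, the cytokine that keeps macrophages alive. There were 2 cultures in each of 4 groups: no PRDX1 + no RANKL, PRDX1 + no RANKL, no PRDX1 + RANKL and PRDX1 + RANKL. RANKL, the cytokine that turns these cells into osteoclasts, was given at 100 ng/mL, and recombinant peroxiredoxin 1 (PRDX1) at 200 nM, for 48 h. All groups received M-CSF at 30 ng/mL and carried no engineered allele. The sample labels name C57BL/6 mice of 6 to 8 weeks as the source. The methods of the study name both C57BL/6J and ICR mice, and for the precursor cells male ICR mice of 6 weeks, so the strain of these cultures is not settled. The PRDX1 protein carried a histidine tag and was made in bacteria, and per the methods it was passed over a resin that removes endotoxin. Nothing states that the 2 cultures of a group came from separate mice, so the p-values measure only the spread between these cultures, which may be technical.

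MMPs are zinc-dependent proteases that cut collagen, elastin and other proteins of the extracellular matrix. Most are secreted as inactive proenzymes and are activated by removal of the propeptide, and TIMPs bind the active site and block it. Mmp9, which encodes gelatinase B, is a classical osteoclast gene, Mmp14 encodes a membrane-anchored MMP that also works at the surface of osteoclasts, and Mmp12 encodes macrophage elastase. The comparisons below ask how PRDX1, given without or with RANKL, changed this set of proteases and inhibitors in cells at an early stage of osteoclast differentiation.

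Levels are given as FPKM, reads scaled by transcript length and by the size of the library, which the authors computed and which allow genes of different length to be compared. FPKM values of the genes checked could be turned back into whole reads, and library totals ranged from 27284654 to 46171842 reads. Changes are log2 fold changes of FPKM + 1 from limma, fitted over the 11700 genes with a mean of at least 0.5 FPKM. This scale understates the change of weakly expressed genes, so ratios of the group means are given beside it for several changes of Mmp9, Mmp13, Mmp14 and Timp3. Calls of higher or lower required a Benjamini-Hochberg adjusted p-value below 0.05 together with a change of 1.5-fold or more, and SE is the standard error of the log2 fold change. All 10 genes passed the filter on low values, but the mean of Mmp9, Mmp13 and Timp3 was under 0.5 FPKM in at least 1 group, so that these passed through the groups in which they were higher. The pairwise comparisons share libraries with each other. Of the 8 macrophage markers, Csf1r had 241 to 514 FPKM, Adgre1 220 to 527 FPKM and Lyz2 8326 to 14982 FPKM over the 8 libraries. Cd68 had 578 to 857 FPKM, Itgam 197 to 294 FPKM and Cd14 146 to 468 FPKM. Fcgr1 had 7.90 to 163 FPKM and Mertk 4.22 to 28.4 FPKM. No stromal marker listed was above 9.56 FPKM and no neutrophil marker above 21.5 FPKM in any library. The lowest levels of Fcgr1 and Mertk lay under both of these limits. As bulk RNA was measured, fewer cells of a type and less RNA per cell cannot be told apart.

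The letters in front of 3 of these genes are shown first, both genes with a match to the AP-1 motif and Mmp14 as 1 of the genes without. RefSeq start sites of GRCm38.p6 (mm10) were found for 7 of the 10 genes in the table used, and the 250 bases before the site that matches the deposited transcript were searched on both strands. Mmp2, Mmp9 and Mmp19 had no matching entry. Capitals mark the AP-1 motif TGANTCA, which is its own reverse complement apart from the central base.
Mmp13, chr9:7272264-7272513, plus strand: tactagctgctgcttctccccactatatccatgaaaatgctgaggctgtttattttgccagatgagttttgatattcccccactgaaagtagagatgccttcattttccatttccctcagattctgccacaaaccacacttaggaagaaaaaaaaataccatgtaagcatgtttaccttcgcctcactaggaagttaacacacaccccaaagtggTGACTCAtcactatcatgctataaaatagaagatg
Mmp12, chr9:7347124-7347373, plus strand: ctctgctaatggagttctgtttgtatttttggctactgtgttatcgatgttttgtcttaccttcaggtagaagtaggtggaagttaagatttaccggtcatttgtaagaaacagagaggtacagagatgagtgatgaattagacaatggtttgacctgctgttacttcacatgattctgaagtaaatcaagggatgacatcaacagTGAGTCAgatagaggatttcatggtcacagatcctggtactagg
Mmp14, chr14:54431348-54431597, plus strand: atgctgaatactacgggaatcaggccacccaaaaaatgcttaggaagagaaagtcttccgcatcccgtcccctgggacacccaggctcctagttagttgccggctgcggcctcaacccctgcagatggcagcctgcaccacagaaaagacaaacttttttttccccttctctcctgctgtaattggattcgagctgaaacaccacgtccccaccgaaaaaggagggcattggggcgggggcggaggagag
The AP-1 letters were present in Mmp13, from 35 to 29 bases before the start site, and in Mmp12, from 44 to 38 bases before it. They were in the windows of these 2 of the 7 genes, against 6.75% of all 32851 promoters of the table. The Ets motif AGGAAG was present in 5 of the 7 genes, 2 copies of it in Mmp13 and 1 in Mmp14, against 29.5% of all promoters. A loose NF-κB motif, GGG and CC with any 5 bases between them, was present in Timp1 and Timp3, against 45.8% of all promoters, and matches to it overlapped each other in Timp1. A match is a description of the letters and not of a bound site.

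The MMPs divided by the direction of their change. RANKL alone raised Mmp9 and Mmp14 and lowered Mmp8, Mmp12 and Mmp13. PRDX1 in the presence of RANKL did the opposite for each of these 5 genes. Without RANKL, PRDX1 raised Mmp12, Mmp13 and Mmp14. Timp1 and Timp3 were higher with PRDX1 both without and with RANKL. No TIMP gene was called in either comparison of RANKL, though Timp2 was lower by less than 1.5-fold with RANKL in the presence of PRDX1.

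**Figure D1:**
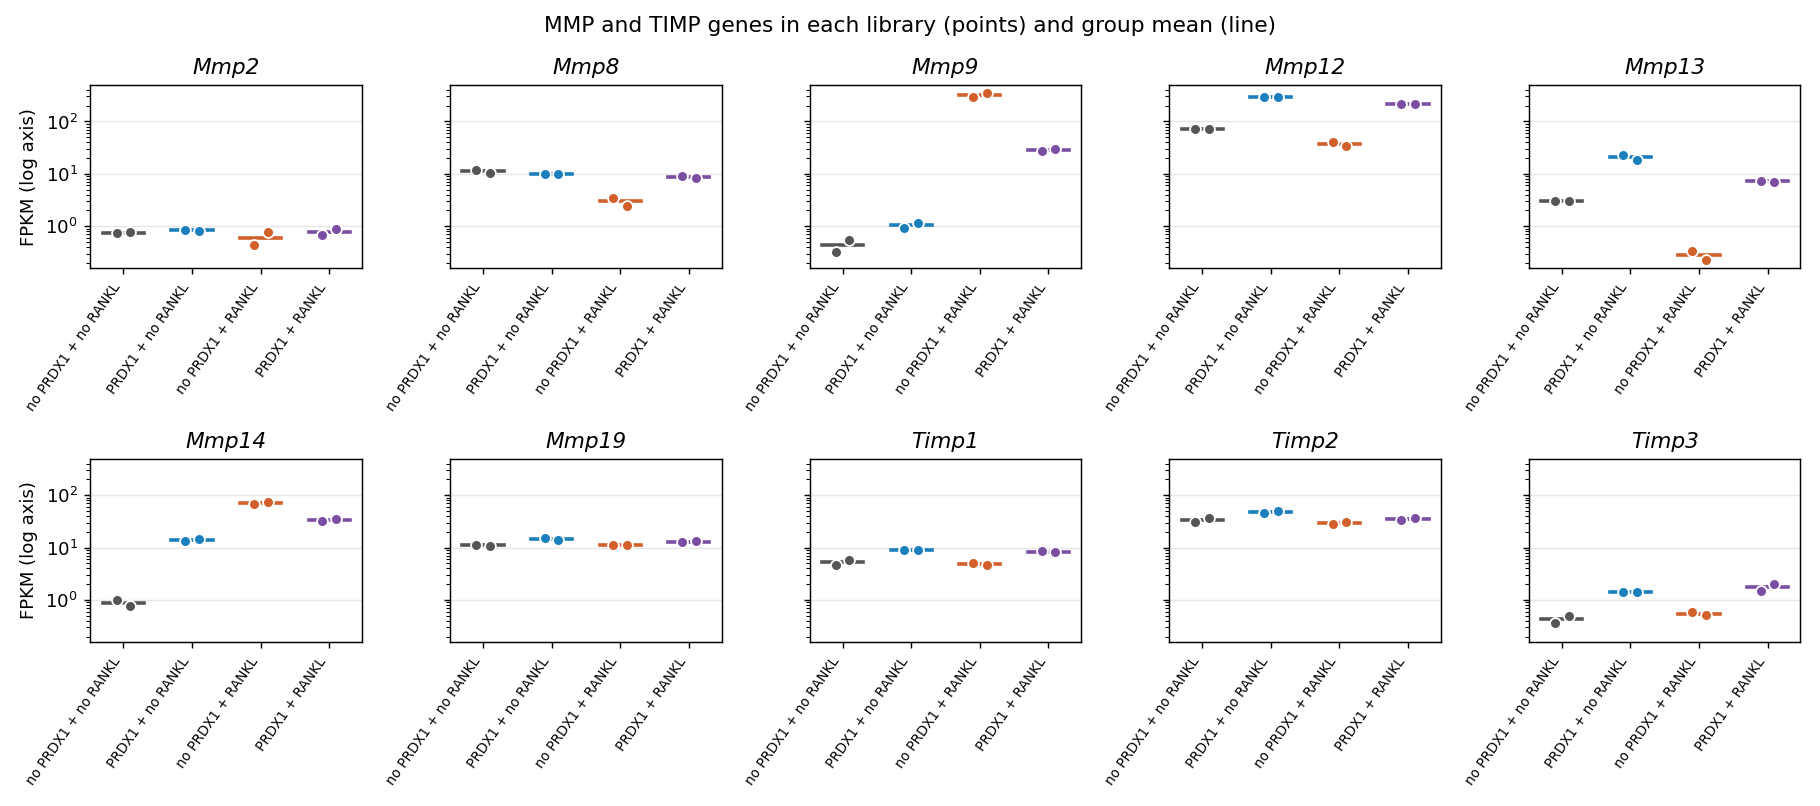
FPKM of the 7 MMP and 3 TIMP genes on a log axis, with each point 1 library and each line the mean of the 2 libraries of a group. Mmp9 reached 294 to 345 FPKM with RANKL alone, whereas Mmp12 was highest with PRDX1 alone, at 287 to 298 FPKM.

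Without RANKL, 5 of the 10 genes were higher with PRDX1 and 0 were lower by limma, where 5.79% of all genes tested were called, 3.80% higher and 1.99% lower. The latter share rests on 233 genes, which became 360 with a pseudocount of 0.1 and 397 with voom. The median log2 fold change of the 10 genes was 0.60, and that of all genes tested was -0.04. When single libraries were left out, the number called higher ranged from 4 to 7. It was 4 without no PRDX1 + no RANKL replicate 1 and 7 without no PRDX1 + no RANKL replicate 2, which added Mmp9 and Timp2. In the presence of RANKL, PRDX1 raised 5 of the 10 genes and lowered 2, where 10.2% of all genes were called, 6.03% higher and 4.17% lower. The median over the 10 genes was 0.48, and over all genes -0.06. RANKL alone raised 2 and lowered 3 of the 10, against 11.8% and 9.96% of all genes and 21.8% in either direction. In the presence of PRDX1, RANKL raised 2 and lowered 1, against 4.52% and 3.98% of all genes and 8.50% in either direction. The balance of all genes turned with the scaling. Under quantile normalization 1088 genes were higher and 1322 lower with RANKL alone, and 457 higher and 563 lower with RANKL in the presence of PRDX1. Under upper quartile scaling these were 1153 and 1302, and 466 and 542. The calls of the 10 genes did not change under either scaling.

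**Figure D2:**
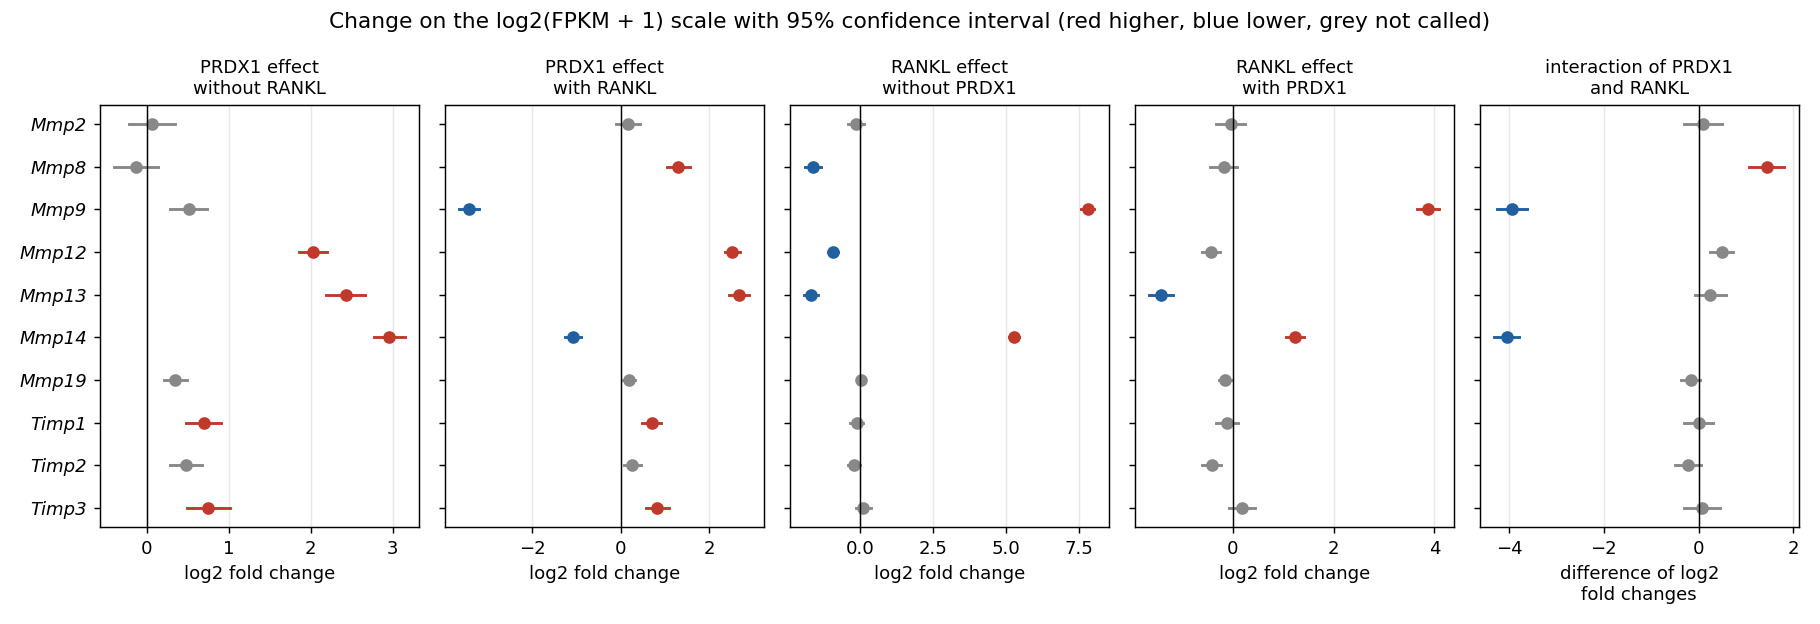
Log2 fold changes of FPKM + 1 with 95% confidence intervals for each gene in the 4 pairwise comparisons and in the interaction, with red for called higher, blue for called lower and grey for not called; the horizontal scale differs between panels. Mmp9 and Mmp14 lie to the right of 0 in both comparisons of RANKL and to the left of 0 in the comparison of PRDX1 with RANKL, and Mmp12 and Mmp13 lie on the other side.

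Mmp9 (NM_013599, mm10 chr2:164948219-164955850, plus strand) had 0.321 and 0.538 FPKM with no PRDX1 + no RANKL, 0.929 and 1.14 FPKM with PRDX1 + no RANKL, 294 and 345 FPKM with no PRDX1 + RANKL, and 27.7 and 29.8 FPKM with PRDX1 + RANKL. No groups overlapped, and the order fell from RANKL alone through PRDX1 + RANKL and PRDX1 alone to neither treatment. RANKL alone raised it by 7.81 on the log2 scale (SE 0.10, adjusted p = 1.38e-11, limma), and the mean FPKM with RANKL was 744 times that without it. The untreated libraries held 30 and 71 reads of Mmp9, and those with RANKL alone 25336 and 37720. PRDX1 lowered Mmp9 in the presence of RANKL, at log2 fold change -3.43 (SE 0.10, adjusted p = 1.01e-08), and the mean without PRDX1 was 11.1 times that with it. RANKL still raised Mmp9 in the presence of PRDX1, by 3.87 on the log2 scale (SE 0.10, adjusted p = 7.75e-09). Without RANKL, the change by PRDX1 was 0.51 (adjusted p = 0.00416) and missed the fold change of 1.5 on this scale, although the ratio of the means was 2.41. It passed both thresholds with a pseudocount of 0.1 (1.12, adjusted p = 0.00126), with voom on the recovered reads (1.25, adjusted p = 0.00511) and without no PRDX1 + no RANKL replicate 2 (0.62, adjusted p = 0.00457).

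Mmp14 (NM_008608, chr14:54431598-54442456, plus strand) encodes MT1-MMP, which also activates the proenzyme of MMP2. It had 1.02 and 0.771 FPKM with no PRDX1 + no RANKL, 13.1 and 14.3 FPKM with PRDX1 + no RANKL, 69.3 and 75.8 FPKM with no PRDX1 + RANKL, and 32.3 and 34.9 FPKM with PRDX1 + RANKL. The groups stood in the same order as for Mmp9 and did not overlap, but PRDX1 alone lay far above the untreated cultures. PRDX1 alone raised it by 2.96 on the log2 scale (SE 0.08, adjusted p = 1.99e-08, limma), with a mean 15.4 times that of the untreated cultures. RANKL alone raised it by 5.28 (SE 0.08, adjusted p = 3.26e-11), with a mean 81.2 times the untreated one. With RANKL present, PRDX1 lowered Mmp14, at log2 fold change -1.09 (SE 0.08, adjusted p = 4.66e-06), so that the mean without PRDX1 was 2.16 times that with it. Each treatment alone raised Mmp14, and the cultures with both lay between those with PRDX1 alone and those with RANKL alone.

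Mmp12 (NM_008605, chr9:7347374-7360461, plus strand) was the MMP with the highest FPKM in every group other than RANKL alone. It had 70.7 and 70.9 FPKM with no PRDX1 + no RANKL, 298 and 287 FPKM with PRDX1 + no RANKL, 40.8 and 33.4 FPKM with no PRDX1 + RANKL, and 219 and 214 FPKM with PRDX1 + RANKL. Both groups with PRDX1 lay above both groups without it, and no groups overlapped. PRDX1 raised it by 2.03 on the log2 scale without RANKL (SE 0.08, adjusted p = 9.40e-08, limma) and by 2.52 with RANKL (SE 0.08, adjusted p = 1.22e-08). RANKL alone gave a log2 fold change of -0.92 (SE 0.08, adjusted p = 3.35e-06). In the presence of PRDX1 the change by RANKL was -0.43 (adjusted p = 0.00152), under the fold change of 1.5.

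Mmp13 (NM_008607, chr9:7272514-7283333, plus strand) encodes collagenase 3, an enzyme that cuts fibrillar collagen. It had 3.06 and 3.08 FPKM with no PRDX1 + no RANKL, 23.3 and 18.7 FPKM with PRDX1 + no RANKL, 0.330 and 0.228 FPKM with no PRDX1 + RANKL, and 7.37 and 6.95 FPKM with PRDX1 + RANKL. The groups stood in the same order as for Mmp12, again without overlap. PRDX1 raised it by 2.43 without RANKL (SE 0.10, adjusted p = 2.35e-07, limma) and by 2.67 with RANKL (SE 0.10, adjusted p = 4.76e-08). These are differences of log2(FPKM + 1), and the ratios of the means were 6.84 without RANKL and 25.7 with it. RANKL gave a log2 fold change of -1.67 without PRDX1 (SE 0.10, adjusted p = 4.24e-07) and -1.42 with PRDX1 (SE 0.10, adjusted p = 4.82e-06). On the linear scale these differed more, since the mean without RANKL was 11 times that with RANKL in the absence of PRDX1 and 2.93 times in its presence. The log2 fold changes were -3.08 and -1.53 with a pseudocount of 0.1, and -3.46 and -1.52 with voom on the recovered reads. With RANKL alone, 24 and 21 reads were counted on Mmp13, so the precision of its ratios is limited there.

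Mmp8 (NM_008611, chr9:7558429-7568486, plus strand) encodes collagenase 2, best known from the granules of neutrophils. It had 11.7 and 10.5 FPKM with no PRDX1 + no RANKL, 9.97 and 10.1 FPKM with PRDX1 + no RANKL, 3.53 and 2.44 FPKM with no PRDX1 + RANKL, and 9.16 and 8.31 FPKM with PRDX1 + RANKL. The RANKL cultures without PRDX1 stood apart below the other 3 groups. RANKL alone gave a log2 fold change of -1.61 (SE 0.12, adjusted p = 1.36e-06, limma), and PRDX1 raised Mmp8 in the presence of RANKL by 1.30 (SE 0.12, adjusted p = 1.60e-05). Without RANKL the change by PRDX1 was -0.13 (95% confidence interval -0.40 to 0.13, adjusted p = 0.457). With PRDX1 present the change by RANKL was -0.18 (95% confidence interval -0.45 to 0.08, adjusted p = 0.251). A list of 10 neutrophil markers moved otherwise, with a summed level of 8.47 to 12.9 FPKM in the untreated cultures, 39.9 to 44.8 with PRDX1 alone, 16.8 to 18.3 with RANKL alone and 35.3 to 38.9 with both. The level came mostly from S100a8 and S100a9. Ly6g had at most 8 reads in any library, whereas Mpo reached 185 reads, Cxcr2 91 and Elane 53. With PRDX1 alone, 4 of the 6 neutrophil markers tested were called higher, 0 lower and 2 not called. Of all genes tested, 3.80% were called higher there and 1.99% lower.

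Mmp19 and Mmp2 were not called in any comparison. Mmp19 (NM_001164197, chr10:128790910-128800827, plus strand) encodes a secreted MMP of broad substrate range. It had 11.4 and 10.9 FPKM with no PRDX1 + no RANKL, 14.9 and 14.1 FPKM with PRDX1 + no RANKL, 11.4 and 11.4 FPKM with no PRDX1 + RANKL, and 12.9 and 13.1 FPKM with PRDX1 + RANKL. Both groups with PRDX1 were above both without it, with changes of 0.35 (adjusted p = 0.00211, limma) in the absence of RANKL and 0.18 (adjusted p = 0.0390) in its presence, which did not reach 1.5-fold. The groups without PRDX1 overlapped. Mmp19 overlaps Tmem198b of the other strand, which had 6.08 to 10.3 FPKM, and reads were counted without regard to strand. Mmp2 (NM_008610, chr8:92827297-92853421, plus strand) encodes gelatinase A. It had 0.751 and 0.767 FPKM with no PRDX1 + no RANKL, 0.855 and 0.824 FPKM with PRDX1 + no RANKL, 0.443 and 0.766 FPKM with no PRDX1 + RANKL, and 0.673 and 0.905 FPKM with PRDX1 + RANKL. Neighbouring groups in the order of its means overlapped, and 37 to 116 reads lay behind these values. The 95% confidence interval for the change by PRDX1 was -0.22 to 0.35 without RANKL and -0.12 to 0.44 with RANKL.

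On the log2(FPKM + 1) scale, the called changes of the TIMP genes were smaller than those of the MMP genes. By ratios of the group means this did not hold for Timp3, with 3.26 and 3.19 for PRDX1 without and with RANKL. The called falls of Mmp14 by PRDX1 with RANKL and of Mmp12 by RANKL alone were 2.16-fold and 1.91-fold. Timp2 (NM_011594, chr11:118301061-118355411, minus strand) was the TIMP with the highest FPKM in each library. It had 31.2 and 36.7 FPKM with no PRDX1 + no RANKL, 45.6 and 49.8 FPKM with PRDX1 + no RANKL, 27.7 and 31.0 FPKM with no PRDX1 + RANKL, and 33.8 and 36.9 FPKM with PRDX1 + RANKL. PRDX1 alone stood above the other 3 groups, and the untreated cultures overlapped with PRDX1 + RANKL. The change by RANKL was -0.20 without PRDX1 (adjusted p = 0.0715, limma). It was -0.42 with PRDX1 (SE 0.09, adjusted p = 0.00373), under 1.5-fold. The change by PRDX1 was 0.48 without RANKL (SE 0.09, adjusted p = 0.00258, limma) and 0.26 with RANKL (adjusted p = 0.0367), both under 1.5-fold. Without no PRDX1 + no RANKL replicate 2 the first of these was 0.59 (adjusted p = 0.00217) and was called.

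Timp1 (NM_011593, chrX:20870166-20874737, plus strand) encodes the TIMP that also binds the proenzyme of MMP9. It had 4.65 and 5.91 FPKM with no PRDX1 + no RANKL, 9.18 and 9.02 FPKM with PRDX1 + no RANKL, 5.00 and 4.58 FPKM with no PRDX1 + RANKL, and 8.43 and 8.30 FPKM with PRDX1 + RANKL. All libraries with PRDX1 were above all libraries without it, and the 2 groups without PRDX1 overlapped. PRDX1 raised it by 0.69 without RANKL (SE 0.10, adjusted p = 5.37e-04, limma) and by 0.69 with RANKL (SE 0.10, adjusted p = 2.82e-04). Without no PRDX1 + no RANKL replicate 1 the former was 0.55 (adjusted p = 0.00345) and fell under 1.5-fold. RANKL changed Timp1 by -0.11 without PRDX1 (95% confidence interval -0.33 to 0.11) and by -0.11 with it (95% confidence interval -0.33 to 0.11). Timp1 overlaps Syn1, a gene of the other strand whose reads were counted without regard to strand. Syn1 had 3.73 to 4.33 FPKM untreated, 4.61 to 6.00 with PRDX1 alone, 3.22 to 3.56 with RANKL alone and 6.24 to 7.30 with both. Its part in the Timp1 values was not tested.

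Timp3 (NM_011595, chr10:86300412-86349505, plus strand) encodes the TIMP that is held in the extracellular matrix. It had 0.361 and 0.497 FPKM with no PRDX1 + no RANKL, 1.39 and 1.41 FPKM with PRDX1 + no RANKL, 0.580 and 0.508 FPKM with no PRDX1 + RANKL, and 1.49 and 1.98 FPKM with PRDX1 + RANKL. The groups with PRDX1 lay above those without it, at a low level throughout. PRDX1 raised it by 0.75 without RANKL (SE 0.12, adjusted p = 0.00108, limma) and by 0.82 with RANKL (SE 0.12, adjusted p = 3.42e-04), and the ratios of the means were 3.26 and 3.19. Timp3 overlaps Syn3, a gene of the other strand with 0.112 to 0.247 FPKM. Fibroblast and stromal markers moved with Timp1 and Timp3: their list of 10 genes summed to 9.30 to 12.0 FPKM in the untreated cultures, 20.1 to 20.2 with PRDX1 alone, 9.08 to 11.3 with RANKL alone and 18.3 to 22.4 with both. In that list Thy1 had 0 reads and Lum at most 2 reads in any library, and Col1a1, Col1a2 and Postn held most of the sum. The neutrophil list given above was also higher in both groups with PRDX1. The part of such cells in the TIMP and MMP values was not tested.

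For 3 of the 10 genes the change by PRDX1 depended on RANKL, tested as an interaction by limma, where 8.85% of all genes were called, 4.50% higher and 4.35% lower. The difference of the log2 fold changes was -4.05 for Mmp14 (SE 0.12, adjusted p = 4.42e-08), -3.94 for Mmp9 (SE 0.14, adjusted p = 1.59e-07) and 1.43 for Mmp8 (SE 0.17, adjusted p = 2.36e-04). For Mmp12 it was 0.49 (adjusted p = 0.00930), under 1.5-fold, and 0.63 (adjusted p = 1.65e-04) and called without no PRDX1 + RANKL replicate 1. For Mmp13 it was 0.25 (95% confidence interval -0.08 to 0.58, adjusted p = 0.274), but this depended on the scale, with 1.55 (adjusted p = 8.02e-04) at a pseudocount of 0.1 and 1.94 (adjusted p = 2.40e-04) with voom on the recovered reads. The difference was 0.00 for Timp1 (95% confidence interval -0.30 to 0.31) and 0.07 for Timp3 (95% confidence interval -0.30 to 0.44).

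The makeup of the MMP transcripts changed with the groups. Mmp12 held 71.5% to 72.7% of the summed FPKM of the 7 MMP genes in the untreated cultures and 82.5% to 82.9% with PRDX1 alone. With RANKL alone it held 7.11% to 9.72%, and Mmp9 took 70.0% to 73.6% and Mmp14 16.1% to 16.5%. With PRDX1 + RANKL, Mmp12 again held the largest share, 69.5% to 70.8%, with Mmp9 at 8.97% to 9.67% and Mmp14 at 10.4% to 11.3%. The summed MMP level was 97.5 to 99.0 FPKM in the untreated cultures, 347 to 361 with PRDX1 alone, 420 to 469 with RANKL alone and 308 to 309 with both. The summed TIMP level moved less, from 36.2 to 43.1 FPKM untreated, 56.1 to 60.2 with PRDX1 alone, 33.3 to 36.1 with RANKL alone and 43.7 to 47.2 with both. The ratio of the MMP sum to the TIMP sum was 2.26 to 2.73 untreated, 5.76 to 6.43 with PRDX1 alone, 12.6 to 13.0 with RANKL alone and 6.53 to 7.08 with both. These are sums of transcript levels, given as a description with no test, and not of enzyme.

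**Figure D3:**
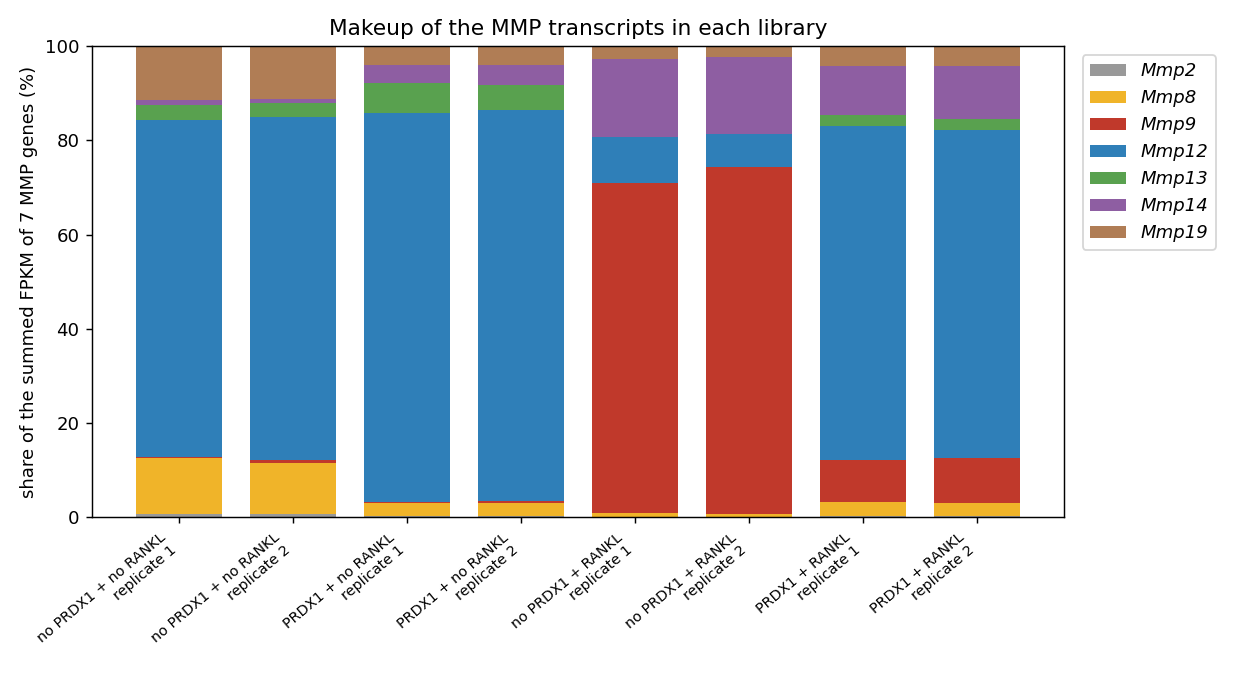
Share of each gene in the summed FPKM of the 7 MMP genes, 1 bar per library. Mmp9 holds 70.0% to 73.6% of the bars of RANKL alone, and Mmp12 holds 69.5% to 82.9% of the other bars.

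Mmp8, Mmp12 and Mmp13 lie in a cluster of 10 MMP genes on chromosome 9 of mm10, from 7272514 to 7699585. Of these, 5 (Mmp1a, Mmp1b, Mmp3, Mmp7 and Mmp20) had at most 2 reads in any library, under the 3 reads that a count of 0 allows. Mmp27, the neighbour of Mmp8, had 2.09 and 2.58 FPKM with no PRDX1 + no RANKL, 4.15 and 4.17 FPKM with PRDX1 + no RANKL, 0.346 and 0.355 FPKM with no PRDX1 + RANKL, and 1.80 and 1.59 FPKM with PRDX1 + RANKL. It followed the direction of Mmp12 and Mmp13, with changes by PRDX1 of 0.63 (adjusted p = 0.00133, limma) in the absence of RANKL and 0.99 (adjusted p = 3.71e-05) in its presence, and by RANKL alone of -1.30 (adjusted p = 2.38e-06). Mmp10, with 0 to 19 reads per library, was too low to be tested. The 4 tested genes of the cluster were called lower with RANKL alone, where 9.96% of all genes were, and higher with PRDX1 in the presence of RANKL, where 6.03% were. They were chosen by position after their values were known, and this count is a description.

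**Figure D4:**
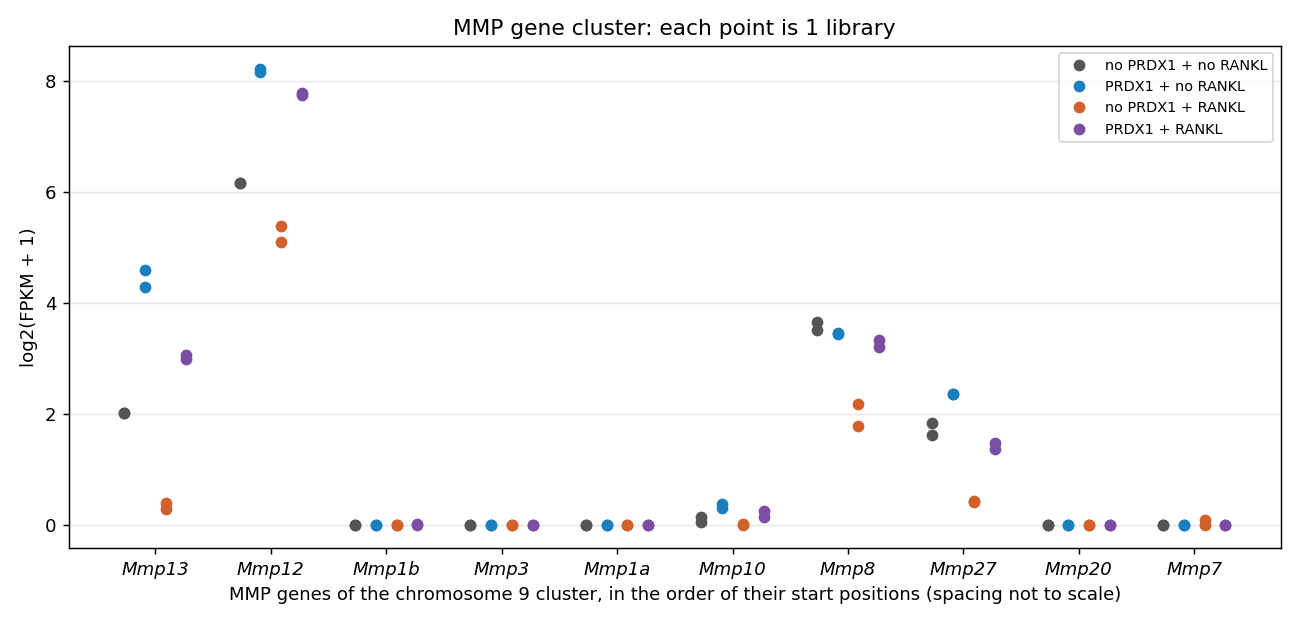
Log2(FPKM + 1) of the 10 MMP genes of the chromosome 9 cluster, placed in the order of their start positions with each point 1 library. Mmp13, Mmp12, Mmp8 and Mmp27 are lowest with RANKL alone, Mmp10 is at most 0.312 FPKM, and the other 5 genes lie at or near 0.

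Other genes that control matrix proteolysis were taken from a list of 66 genes: the remaining MMPs with Timp4, the plasminogen system and other MMP regulators, and the ADAM and ADAMTS proteases. Of the 66 genes, 21 passed the filter on low values. PRDX1 without RANKL raised 3 of the 21 and lowered 0, and PRDX1 with RANKL raised 9 and lowered 0, with a median log2 fold change of 0.07 and 0.33. RANKL without PRDX1 raised 0 and lowered 7, and RANKL with PRDX1 raised 1 and lowered 2. The background shares are those given above. Plau, which encodes urokinase, an activator of plasminogen, had 373 ± 19.4 FPKM (SD, n = 2) untreated, 309 ± 3.20 with PRDX1 alone, 51.1 ± 0.236 with RANKL alone and 94.6 ± 1.66 with both. Its log2 fold change by RANKL alone was -2.84 (SE 0.05, adjusted p = 3.92e-11, limma). In the presence of PRDX1 it was -1.70 (SE 0.05, adjusted p = 8.98e-09). Serpinb2, which encodes an inhibitor of urokinase, was raised by PRDX1 in the presence of RANKL by 1.68 (adjusted p = 3.48e-06). With PRDX1 present, RANKL raised Serpinb2 by 1.36 (adjusted p = 2.03e-05). Serpinb2 had 0.268 ± 0.0863 FPKM (SD, n = 2) untreated, 0.6445 ± 0.129 with PRDX1 alone, 0.314 ± 0.110 with RANKL alone and 3.22 ± 0.394 with both. It held 12 to 51 reads in the libraries outside PRDX1 + RANKL. Its mean over all libraries thus passed the filter through PRDX1 + RANKL, the group in which it was raised. Lcn2, whose product binds MMP9, was raised by PRDX1 by 1.35 (adjusted p = 1.66e-04) in cultures without RANKL and by 1.16 (adjusted p = 2.41e-04) in those with it. Its level was low, at 0.376 ± 0.372 FPKM (SD, n = 2) in the untreated cultures. The means were 2.45 FPKM with PRDX1 alone, 0.871 with RANKL alone and 3.18 with both. Lrp1, an endocytic receptor that clears MMPs and TIMPs, was lower with RANKL alone, at log2 fold change -1.22 (adjusted p = 5.79e-06).

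Genes whose pattern over the 8 libraries was nearest were sought for each gene called in any comparison, by the distance between centred log2(FPKM + 1) values. The libraries share their treatments, so the correlations describe likeness only. The nearest to Mmp9 was Ctsk, the cathepsin of osteoclasts (distance 1.34, Pearson r = 0.99 over 8 libraries), followed by Slc9b2 and Ocstamp. Mmp14 was nearest to Src (distance 1.48, r = 0.97), Cav1 and Igf2r. Mmp12 was nearest to Ms4a7 (distance 0.35, r = 0.99), Ms4a4c and Npy, and Mmp13 to Hal (distance 0.62, r = 0.99), Id1 and Ms4a4c. Mmp8 was nearest to the macrophage receptor gene Cd14 (distance 0.36, r = 0.98), Ptgir and Gcnt1. Timp1 was nearest to Znfx1 (distance 0.17, r = 0.99), Apobec1 and Cpeb1, and Timp3 to Tap1 (distance 0.25, r = 0.98), Sparc and Helz2. A list of 9 osteoclast markers, Ctsk and Ocstamp among them, summed to 33.8 to 35.0 FPKM untreated, 79.3 to 83.9 with PRDX1 alone, 1573 to 1618 with RANKL alone and 211 to 215 with both. The 8 macrophage markers summed to 15718 to 17484 FPKM untreated, 16547 to 17009 with PRDX1 alone, 9857 to 10278 with RANKL alone and 13421 to 13821 with both. Lyz2, which encodes lysozyme, held most of each of these sums, with mean levels of 14117, 14048, 8597 and 11576 FPKM, and Fcgr1, an Fc receptor gene, differed more, with 113, 162, 8.49 and 51.3 FPKM. The sums of the osteoclast markers stood in the order of Mmp9 and Mmp14, but Acp5, which encodes the phosphatase TRAP, held most of each sum, with mean levels of 23.6, 53.7, 1105 and 162 FPKM in the same order of groups. With PRDX1 alone, 3 of the 8 osteoclast markers tested were called higher and 1 lower, against 3.80% and 1.99% of all genes. Those called higher by limma were Atp6v0d2 (log2 fold change 1.57), Acp5 (1.15) and Dcstamp (0.91). The lower gene was Itgb3, at 1.88 FPKM untreated and 0.662 FPKM with PRDX1 alone (log2 fold change -0.79, adjusted p = 1.32e-04, limma). The macrophage markers were lowest with RANKL alone, as Mmp8, Mmp12 and Mmp13 were.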

How the data were processed

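RNA of 8 cultures, 2 in each of 4 groups by the sample labels, was sequenced. The authors aligned the reads with HISAT2, counted them with HOMER on exons of RefSeq transcripts of mm10 on both strands, kept 1 transcript per gene and deposited FPKM. The table held 0 other columns of per-sample values. Reads recovered from FPKM and transcript length were whole, within 0.15, for 100% of the genes checked in each library, and 24542578 to 41712973 reads lay on genes. The 3-read floor covers counting error only.

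In limma 3.58.1 (R 4.3.3), log2(FPKM + 1) was fitted to all 4 groups at once, with a trend of the variance on intensity and 4 residual degrees of freedom. Libraries of a group differed by more than sampling noise (chi-square per degree of freedom 4.71 to 9.58). The fit was tested on simulated data with 1 fixed spread for all genes and changes in 1 group only. Of 100 genes changed 2-fold it recovered 96, and of 100 changed 4-fold 100, with 10 false calls. Only genes with a mean of at least 2 FPKM were changed, so levels as low as those of Mmp2 and Timp3 were not covered. An exact permutation of 2 cultures against 2 cannot go under p = 0.333. Alternatives were another pseudocount, filters, scalings, voom, no trend, a replicate block and leaving out each library. The members, gene lists and tests were chosen with earlier results of these data known. Named genes were all members, the 3 largest calls per pairwise comparison among the other listed genes (1 gene is not reported here), and the 3 nearest genes of each called member.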

Additional observations from a re-analysis of the deposited data

Results flagged for a closer look

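The effect of PRDX1 differed between cultures with and without RANKL, by the interaction test of limma, for 3 genes of the set. For Mmp8 the difference of the log2 fold changes was 1.43, for Mmp9 it was -3.94 and for Mmp14 it was -4.05. Mmp14 changed direction, from 2.96 without RANKL to -1.09 with RANKL. The direction and the call of these 3 differences held under each alternative run, and with each library left out they ranged from 1.23 to 1.63 for Mmp8, from -4.05 to -3.82 for Mmp9 and from -4.14 to -3.95 for Mmp14.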

How the results depend on the processing

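Of the 795 values of single genes under the alternatives, 772 kept direction and call, 7 passed the thresholds newly, 1 no longer did and 15 changed sign, each of the 15 a value that was not called. The number of genes lower with PRDX1 without RANKL, 233, became 360 with a pseudocount of 0.1 and 397 with voom on recovered reads. The number of the 10 genes called higher in the interaction, 1, became 2 under both (Mmp13 was then called beside Mmp8), and was 1 to 2 with a library left out. The values that changed sign were the change of Mmp19 by RANKL alone (0.03; -0.0644 under quantile normalization, -0.0362 under upper quartile scaling, -0.00204 to 0.0531 with a library left out) and the interactions of Timp3 (0.07; -0.0138 at pseudocount 0.1, -0.0293 with voom, -0.0580 to 0.200 with a library left out) and Timp1 (0.00; -0.0122 under quantile normalization, -0.144 to 0.146 with a library left out). With a library left out, the change of Timp1 by RANKL alone was -0.26 to 0.0348, that of Mmp2 -0.29 to 0.00574, that of Mmp2 by RANKL with PRDX1 -0.14 to 0.0505 and the interaction of Mmp2 -0.0489 to 0.243. Such fits assume that the lone library of a group varies like the others. The cause of these shifts was not tested. Mmp2 was not tested with the filter of 1 FPKM.

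The replicate numbers of the labels are not stated to mark a shared mouse or day, and the header of the table names the alignments by other numbers, so the block may join libraries that do not belong together. Deviations of same-numbered libraries correlated by 0.00847 to 0.0965 between groups, and a replicate block left 444 genes higher and 232 lower with PRDX1 without RANKL and 705 higher and 487 lower with RANKL, and changed no call among the 10 genes.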
